A study of Mus musculus with 28 samples.

Results

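Muscle labelled 24 h after injection of aspirin and trimetazidine was compared with muscle labelled 24 h after vehicle injection, both from obese mice. These are 2 of the 28 libraries of the series, with 1 library in each group. Both mice were males on the C57BL/6J background, homozygous for the ob allele (Lepob/Lepob), which leaves them without functional leptin. The combination animal received aspirin (acetylsalicylate) at 3.0 mg/kg/day together with trimetazidine at 5.0 mg/kg/day into the abdomen, and the vehicle animal the same volume of solvent. All mice of the model, 30 in number, began a high-calorie diet at 4 weeks of age and ate it for 20 weeks, and they stayed on it during treatment. The diet draws 40% of its calories from fat, of which trans-fat is 18.5%, and 20% from fructose, and it holds 2% cholesterol by weight. The sources used here name neither the muscle taken nor the hour of day. The question behind the study is whether giving both drugs improves metabolic disease; its title speaks of exercise enhancers.

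Genes were compared where their level averaged 5 FPKM or more over the 2 libraries (FPKM counts fragments relative to the length of the gene and the size of the library), 6763 of the 54501 genes listed. The measure is the log2 ratio, log2((combination + 1)/(vehicle + 1)), which understates the change of low genes. A gene is called higher or lower where the ratio reached 1 or −1, a 2-fold difference. With 1 library a group no test is possible at 24 h, and the treatment and any other difference between the 2 samples cannot be told apart. Intervals given with fold values are exact binomial 95% intervals from the recovered reads and cover counting error only. As a view of how far mice differ, the levels in the 6 vehicle muscles taken at 40 d, from the same model under the same treatments, are given beside the values. They stand in a table normalized separately, in which the typical gene was lower: the median gene was above its 40 d median by 0.16 on the log2 scale in the combination library and by 0.21 in the vehicle library.

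Skeletal muscle is made of fast fibres, which burn glucose and contract quickly, and slow or intermediate fibres, which burn fat in many mitochondria. Aspirin blocks the cyclooxygenase enzymes that make prostaglandins (genes Ptgs1 and Ptgs2), and trimetazidine inhibits a thiolase, the last enzyme of each round in which mitochondria shorten fatty acids. A block of muscle also holds fat cells, vessels, nerve and blood, so its RNA is a mixture. In such bulk RNA, fewer cells of a type and less RNA per cell cannot be told apart.

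The combination library held 16.06 M reads on genes and the vehicle library 17.41 M. Mitochondrial genes took 10.97% of the reads in the combination library, against 6.94% in the vehicle library, and 5.10% to 10.5% in the 12 muscles at 40 d. Both libraries carried muscle transcripts at high levels, with skeletal actin Acta1 at 12715 FPKM in the combination and 18671 FPKM in the vehicle library. A few genes that muscle is known to use were listed near 0 in every muscle library (glycogen phosphorylase Pygm at 0.0621 FPKM in the combination and 0.0394 in the vehicle library, troponin C gene Tnnc2 at 0.333 and 0.159, and Fbxo32 at 0 and 0.0091), and nothing is drawn from these.

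Of the 6763 genes, 159 were higher (2.35%) and 56 were lower (0.828%) in the combination library. The ratio was positive in 43.8% and negative in 56.2% of all genes, with a median of −0.04, and 5% of genes lay under −0.56 and 5% above 0.69. Differences of this size also occurred within 1 group: 11.1% of the same genes spanned 2-fold or more across the 6 vehicle muscles at 40 d. That span runs from the lowest to the highest of 6 libraries, so 11.1% is not the share for a single pair. Over all genes, 5.67% had a positive and 9.17% a negative ratio larger than the gene's own span in those muscles. The higher and lower genes were chosen by the size of the ratio, so their values against the 40 d muscles only describe them. The ratio was larger than the span in 91 of the 158 higher genes that the 40 d table lists (57.6%) and in 37 of the 56 lower genes (66.1%), which the choice by size makes likely. Among the 158 higher genes, 111 (70.3%) had a level outside all 12 muscles at 40 d in the combination library alone. In the vehicle library alone 18 did (11.4%). Of the lower genes 16 (28.6%) were outside in the combination library alone and 16 (28.6%) in the vehicle library alone. The shares over all 6749 genes also listed at 40 d were 18.3% in the combination library alone and 11% in the vehicle library alone. Nearest the threshold, P2rx5 was called higher with 8.43 FPKM in the combination and 3.71 in the vehicle library, and Fam213a, at 51.7 and 25.4, was left out with a ratio of 0.995. Ksr1 was called lower with 16.9 and 34.8 FPKM, and Amd1, at 53.4 and 108, was left out with −0.997.

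**Figure D1:**
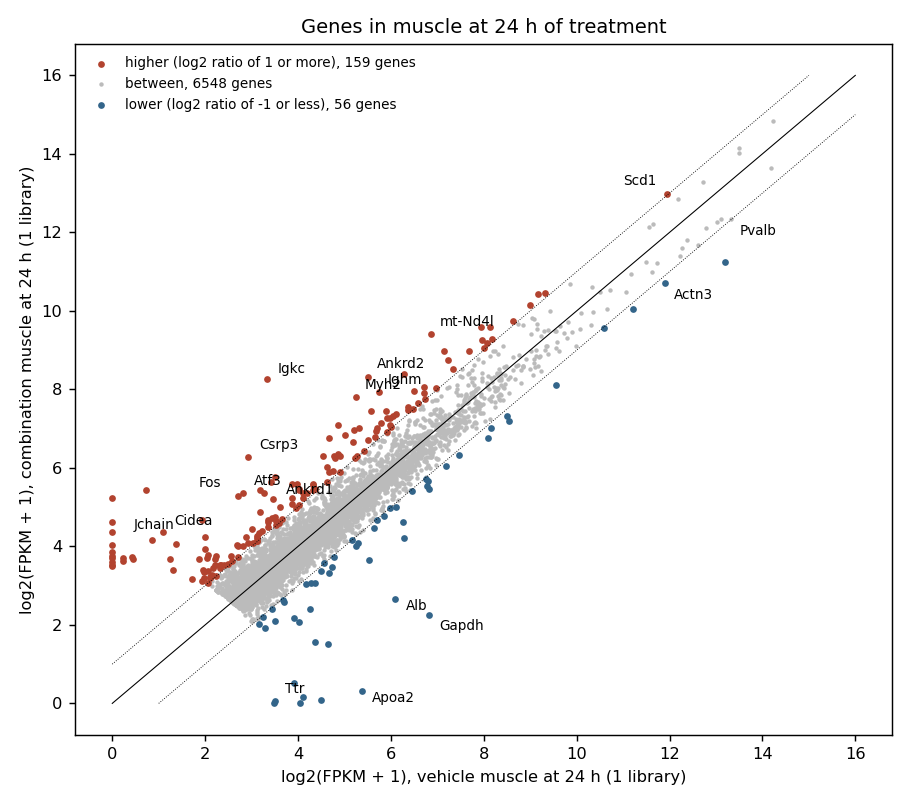
Level of each of the 6763 genes in the combination (vertical axis) and vehicle (horizontal axis) muscle library at 24 h, as log2(FPKM + 1). The solid line marks equal levels and the dotted lines a log2 ratio of 1 and −1. Red points are the 159 higher genes, among them immunoglobulin, stress and fat genes, and blue points the 56 lower genes, with liver transcripts at the foot of the plot.

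Most genes of fast, glucose-burning fibres had less RNA in the combination library, 3 of them past 2-fold, and several genes of slow or stretched fibres were higher. Of 15 fast-fibre genes kept, of the 16 listed, 13 had a negative ratio and the median was −0.77, against −0.04 for all genes. Over all genes 56.2% had a negative ratio and 0.828% were lower. The list's median spanned 0.71 on the log2 scale over the 6 vehicle muscles at 40 d, a little less than this difference. Actn3, the fast-fibre actinin, had 1687 FPKM in the combination and 3824 FPKM in the vehicle library, a log2 ratio of −1.18 (0.441-fold, 0.437 to 0.445). At 40 d the vehicle muscles had 2705 to 3981 FPKM of Actn3, so that the combination library lay under all of them. Pvalb, the calcium buffer parvalbumin, had 5203 FPKM in the combination and 10244 in the vehicle library. The vehicle muscles at 40 d had 5724, 6040 and 8980.05 FPKM (lowest, median and highest), so the combination library lay under them and the vehicle library above them, and of the 2 only the vehicle library lay outside all 12 muscles at 40 d. Myh4, the myosin heavy chain of the fastest fibres, had 3289 and 6230 FPKM in the combination and vehicle library, and the tropomyosin gene Tpm1 had 1058 and 2358.

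Myh2 and Myh1 were the exceptions on the fast list. Myh2 is the myosin heavy chain of fast oxidative fibres and had 224 FPKM in the combination and 36.8 FPKM in the vehicle library, a log2 ratio of 2.57 (6.09-fold, 5.89 to 6.29). At 40 d the vehicle muscles had 207, 332 and 591 FPKM (lowest, median and highest). The combination library thus had a level seen at 40 d, and the vehicle library lay under all 12 muscles. Myh1, of an intermediate fast type, stood between these genes with 808 and 424 FPKM, a ratio of 0.93. Myosin heavy chains are similar genes, and the sources used here do not say how reads shared between them were assigned.

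The contractile genes of slow fibres were nearly silent in both libraries. Myh7, the myosin heavy chain of slow fibres, had 0.139 FPKM in the combination and 0.0663 FPKM in the vehicle library, against 15.5, 35.9 and 157 FPKM in the vehicle muscles at 40 d (lowest, median and highest). Tnni1, a slow troponin gene, had 0.777 and 0.0881 FPKM, and Myl2, a slow myosin light chain, 4.03 and 0.358. Both 24 h libraries were far below the 40 d muscles in these genes, and whether the same muscle was sampled at both times was not tested. Of the 15 listed genes, 6 passed the mean of 5 FPKM. All 6 had a positive ratio, against 43.8% of all genes, with a median of 1.58. That list's median spanned 1.63 across the vehicle muscles at 40 d, about as much. Among the 6, Myoz2 passed only through the combination library, with 11.7 FPKM against 1.35 in the vehicle library, so its direction adds no support. Under other settings of the processing the list's median at 24 h lay between 0.86 and 2.81.

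The largest differences on the slow list were in genes of the Z-disc and of the response to load. Csrp3, a muscle LIM protein thought to take part in sensing stretch (chromosome 7, 48830398 to 48848033, minus strand, GRCm38), had 77.0 FPKM in the combination and 6.58 FPKM in the vehicle library, a log2 ratio of 3.36 (11.7-fold, 10.3 to 13.3). Ankrd2, an ankyrin-repeat protein induced by stretch (chromosome 19, 42036038 to 42045110, plus strand), had 318 and 44.4 FPKM in the combination and vehicle library, a ratio of 2.81. The vehicle muscles at 40 d had 24.2 to 83.0 FPKM of Csrp3 and 135 to 370 FPKM of Ankrd2. For both genes the combination library lay within the 40 d levels and the vehicle library under them.

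Ankrd1, the cardiac ankyrin-repeat protein, which is induced in loaded or injured muscle (chromosome 19, 36111965 to 36119844, minus strand), had 53.2 FPKM in the combination and 10.4 FPKM in the vehicle library, a ratio of 2.26 (5.14-fold, 4.53 to 5.86). In vehicle muscles at 40 d it had 2.02, 3.84 and 7.69 FPKM (lowest, median and highest), so both libraries lay above them, the combination library further. Other structural genes were higher too: Xirp1, an actin-binding repeat protein, had 107 and 24.4 FPKM, and Flnc, a filamin that crosslinks actin, 173 and 58.7 FPKM in the combination and vehicle library. The structural list as a whole did not lean, with 10 of 19 kept genes positive, 6 higher, none lower and a median of 0.02. Over all genes 43.8% were positive, 2.35% higher and 0.828% lower. The abundant members Acta1 (−0.55) and Ckm, the muscle creatine kinase (−0.82), had negative ratios.

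Genes of calcium release and uptake couple the nerve signal to contraction. All 15 kept had negative ratios, against 56.2% of all genes, with a median of −0.61. That list's median spanned 0.40 across the vehicle muscles at 40 d, and 9 of the 15 ratios were larger than the gene's own span, against 9.17% of all genes. Ryr1, the calcium release channel, had 74.5 FPKM in the combination and 127 FPKM in the vehicle library, and Cacng1, a subunit of the voltage sensor, had 108 and 274 FPKM. The vehicle muscles at 40 d had 121 to 134 FPKM of Ryr1, and the combination library lay under every muscle at 40 d. Camk2a, a calcium-dependent kinase, had 35.6 and 70.1 FPKM. On the list of denervation and myogenic genes 5 of 17 were kept, all negative, against the same 56.2%, with a median of −0.45. Among them was the regulator Myod1 at 7.05 and 12.3 FPKM in the combination and vehicle library.

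**Figure D2:**
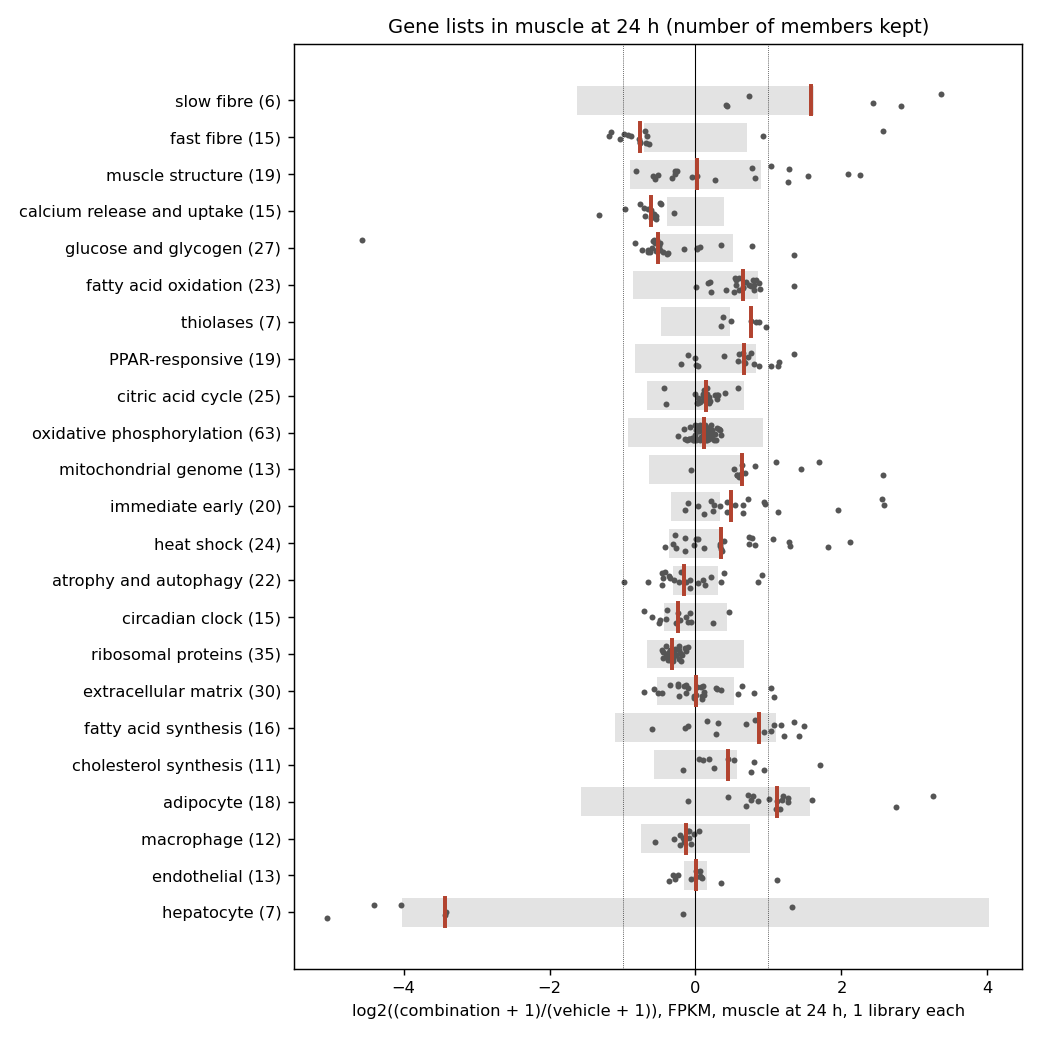
Log2 ratio of combination over vehicle in muscle at 24 h (horizontal axis) for the kept members of 23 gene lists (rows, number of members in brackets). Each dot is a gene, the red bar is the list median, and the grey band reaches to either side of 0 by the distance between the lowest and highest list median among the 6 vehicle muscles at 40 d. The medians of the fast-fibre, calcium, thiolase and immediate early lists lie outside their band, and those of the fatty acid oxidation and adipocyte lists inside.

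Fuel genes divided by pathway. Fatty acid oxidation, in which the mitochondrion cuts fatty acids into acetyl units, had positive ratios in all 23 genes kept of 24 listed, with a median of 0.65. Only Acsl1, which activates long-chain fatty acids, reached 2-fold, with 140 FPKM in the combination and 54.0 FPKM in the vehicle library (2.59-fold, 2.52 to 2.65). The vehicle muscles at 40 d had 50.4 to 74.0 FPKM of Acsl1, and the combination library lay above every muscle at 40 d. Cpt2, of the carnitine shuttle, had 72.7 and 39.0 FPKM in the combination and vehicle library, and Ech1, an isomerase of unsaturated fatty acids, 263 and 147. The list's median spanned 0.86 across the vehicle muscles at 40 d, more than the difference at 24 h. Of the 23 ratios 7 exceeded the gene's own span. Over all genes 43.8% had a positive ratio, and 5.67% one larger than the span.

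The thiolase list includes the mitochondrial enzyme that trimetazidine inhibits, and also others such as the cytosolic Acat2. Its genes were all on the positive side, 7 of 7 kept against 43.8% of all genes. Their median was 0.75, and none reached 2-fold. Acaa2, the mitochondrial thiolase, had 226 FPKM in the combination and 134 FPKM in the vehicle library, a ratio of 0.75, and the vehicle muscles at 40 d had 143, 176 and 299.5 FPKM (lowest, median and highest). Hadhb, the thiolase subunit of the trifunctional protein, had 81.4 and 44.1 FPKM, and Acat2, a cytosolic thiolase, 16.3 and 7.91. For Acaa2 and Hadhb the combination library lay within the levels of the vehicle muscles at 40 d. The thiolase list's median spanned 0.47 across those muscles. Of the 7 ratios 2 exceeded the gene's own span, against 5.67% of all genes with a positive ratio that large.

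Genes that respond to the fatty acid receptors of the PPAR family had a median of 0.67. Against 43.8% positive and 2.35% higher over all genes, 16 of the 19 kept were positive and 4 higher. They included Fabp3, the fatty acid binding protein of muscle, at 1415 and 642 FPKM in the combination and vehicle library, Plin2, which coats lipid droplets, at 109 and 49.2, and the lipase inhibitor Angptl4 at 49.1 and 23.5. Pdk4, which shuts pyruvate out of the mitochondrion during fasting, had 255 and 170 FPKM, within the 53.8 to 533 FPKM of the vehicle muscles at 40 d, and the uncoupling protein gene Ucp3 had 68.3 and 66.6. Fat cells also express many of these genes, and the adipocyte markers given below were higher in the same library. Their part in these values was not tested.

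Glucose and glycogen genes were mostly on the negative side, 21 of 27 kept, against 56.2% of all genes. Their median was −0.51, close to the 0.51 that the list's median spanned at 40 d. Of the 27, 1 was higher and 1 lower, against 2.35% and 0.828% of all genes. The muscle enolase gene Eno3 had 2401 FPKM in the combination and 3413 FPKM in the vehicle library, the aldolase gene Aldoa 3581 and 5339, and Phkg1, of phosphorylase kinase, 43.5 and 78.3. Slc2a4, the insulin-responsive glucose transporter, had 146 and 205 FPKM. The 1 gene higher was Ldhb, the lactate dehydrogenase subunit of oxidative tissue, with 152 and 59.0 FPKM, a ratio of 1.35. Gapdh was listed at 3.74 FPKM in the combination and 112 FPKM in the vehicle library, while the vehicle muscles at 40 d ranged from 4.50 to 95.3. This gene has many processed copies in the genome, and its level is uncertain here.

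Mitochondrial genes encoded in the nucleus differed little. The citric acid cycle had a median of 0.15 (22 of 25 positive) and oxidative phosphorylation a median of 0.12 (50 of 63 positive), none of either list reaching 2-fold, against 43.8% of all genes with a positive ratio. Transcripts of the mitochondrial genome stood higher, 12 of 13 positive with a median of 0.64, about as much as the 0.64 that the list's median spanned at 40 d. The abundant mt-Co1 and mt-Cytb, of complexes IV and III, had 29504 and 18045 FPKM in the combination library, against 19095 and 11555 in the vehicle library. The largest ratio was that of mt-Nd4l, a small subunit of complex I, with 685 and 115 FPKM in the combination and vehicle library (5.96-fold, 5.43 to 6.54). It varied widely at 40 d too, between 43.3 and 549 FPKM in the vehicle muscles. Copies of mitochondrial DNA exist in the nuclear genome, and reads shared with them may have been assigned either way.

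Immediate early genes, which switch on within minutes of a stimulus such as contraction or stress, mostly had positive ratios. Of 20 kept, 18 were positive, 4 higher and none lower, with a median of 0.49 against a span of 0.34 at 40 d. In 8 a positive ratio exceeded the gene's own span. Over all genes 43.8% were positive, 2.35% higher, and 5.67% had a positive ratio larger than the span. Fos, a subunit of the AP-1 transcription factor (chromosome 12, 85473890 to 85477273, plus strand), had 38.1 FPKM in the combination and 5.56 FPKM in the vehicle library, a ratio of 2.58 (6.86-fold, 5.92 to 7.98). Atf3, a stress-induced transcription factor of the ATF family (chromosome 1, 191170296 to 191218039, minus strand), had 40.4 and 6.04 FPKM, a ratio of 2.56. The vehicle muscles at 40 d had 3.76, 5.10 and 20.8 FPKM of Fos and 3.25, 6.48 and 16.8 FPKM of Atf3 (lowest, median and highest). The combination library lay above every muscle at 40 d in both genes and the vehicle library among them. Egr1, which passed the level minimum only through the combination library, had 14.4 and 2.99 FPKM. Fosb, under that minimum, had 5.89 and 0.376. Other members differed little, such as Nr4a1, a nuclear receptor induced by contraction, at 131 and 104 FPKM, and the phosphatase gene Dusp1 at 110 and 80.7.

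Several stress proteins that guard the contractile apparatus were higher as well. On the heat shock list 17 of 24 kept genes were positive, 5 higher and none lower, against 43.8%, 2.35% and 0.828% of all genes. The list's median was 0.35 beside a span of 0.36 at 40 d. Hspb7, a small heat shock protein of the sarcomere, had 337 FPKM in the combination and 76.7 FPKM in the vehicle library, and the small heat shock genes Hspb1 and Cryab had 506 and 608 FPKM in the combination library, against 205 and 249 in the vehicle library. Hspa1a and Hspa1b are near-identical copies of the inducible heat shock protein, between which reads are hard to divide. They had 11.8 and 11.4 FPKM in the combination library, against 2.63 and 4.93 in the vehicle library. Both passed the level minimum only through the combination library, so their place among the 5 higher genes adds no support. At 40 d vehicle muscles held 152 to 443 FPKM of Hspb7 and 339 to 743 FPKM of Cryab, and for both genes the vehicle library lay under every muscle at 40 d and the combination library within them. For Hspa1b the vehicle muscles at 40 d held 3.56 to 6.25 FPKM, and the combination library lay above every muscle at 40 d, as it did for Hspb1. Hspb2, on the opposite strand, overlaps 17.0% of the exons of Cryab.

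The promoters of 5 of these genes are shown because short elements of stress and load responses can be looked for in them. Each is the 250 bases before the annotated start in RefSeq (GRCm38.p6), on the strand of the gene, with matches to a short motif on either strand in capitals. For Atf3 that start lies within the gene span given above, not at its end. The motif is TGACG, the half-site of the element bound by CREB and ATF factors, for Fos and Atf3, GAANNTTC, the core of the heat shock element, for Hspb1 and Hspa1b, and CATTCC, bound by TEAD factors, for Ankrd1.
Fos, chr12:85473640-85473889, plus strand: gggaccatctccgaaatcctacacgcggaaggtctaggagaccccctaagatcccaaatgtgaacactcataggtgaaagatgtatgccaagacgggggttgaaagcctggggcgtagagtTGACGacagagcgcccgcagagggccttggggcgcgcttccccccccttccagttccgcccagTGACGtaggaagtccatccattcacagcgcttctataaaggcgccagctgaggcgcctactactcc
Atf3, chr1:191183334-191183583, minus strand: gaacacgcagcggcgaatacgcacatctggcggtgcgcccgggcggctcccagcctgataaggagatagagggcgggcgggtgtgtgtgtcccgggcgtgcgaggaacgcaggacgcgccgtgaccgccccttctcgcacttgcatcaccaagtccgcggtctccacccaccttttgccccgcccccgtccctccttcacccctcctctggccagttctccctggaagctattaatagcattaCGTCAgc
Hspb1, chr5:135887669-135887918, plus strand: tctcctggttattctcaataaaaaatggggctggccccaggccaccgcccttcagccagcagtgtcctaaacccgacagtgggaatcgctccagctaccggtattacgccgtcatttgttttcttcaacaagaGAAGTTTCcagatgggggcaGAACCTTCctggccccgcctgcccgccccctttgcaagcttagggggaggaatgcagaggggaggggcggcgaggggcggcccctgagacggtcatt
Hspa1b, chr17:34959239-34959488, minus strand: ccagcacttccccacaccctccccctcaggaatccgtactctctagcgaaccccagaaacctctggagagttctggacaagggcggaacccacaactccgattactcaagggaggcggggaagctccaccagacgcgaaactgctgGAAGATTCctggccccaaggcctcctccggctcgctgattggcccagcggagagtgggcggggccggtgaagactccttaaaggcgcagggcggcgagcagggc
Ankrd1, chr19:36119845-36120094, minus strand: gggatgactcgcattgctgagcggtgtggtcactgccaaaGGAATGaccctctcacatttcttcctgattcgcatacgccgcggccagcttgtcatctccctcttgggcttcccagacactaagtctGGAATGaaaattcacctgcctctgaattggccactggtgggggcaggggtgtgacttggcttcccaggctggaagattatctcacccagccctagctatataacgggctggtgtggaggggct
Fos held 2 matches, beginning 129 and 66 bases before the start, and Atf3 held 1, on the opposite strand. Hspb1 held 2, Hspa1b 1 and Ankrd1 2. The letters are common: TGACG occurred in 17.8% of the 32851 RefSeq windows of this kind, GAANNTTC in 6.7% and CATTCC in 12.6%. A match is a description of these letters and was not tied to the levels above.

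**Figure D3:**
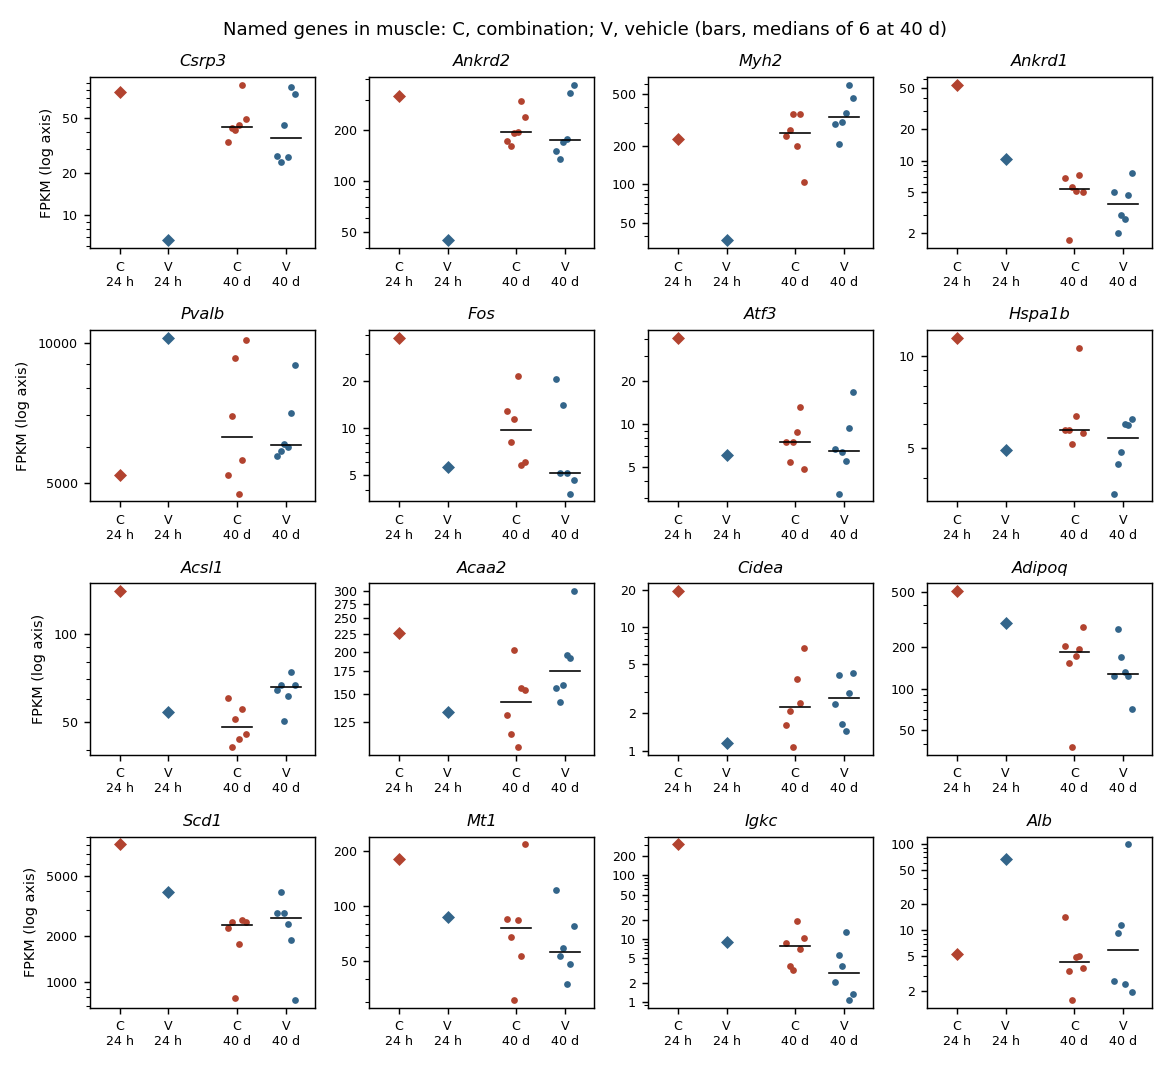
FPKM (log axis) of 16 genes in muscle at 24 h (diamonds, 1 library each) and at 40 d (circles, 6 libraries each, with the median as a bar), combination in red and vehicle in blue, from tables normalized separately. Fos, Atf3, Acsl1, Cidea and Igkc in the combination library at 24 h lie above every muscle at 40 d, while for Csrp3, Ankrd2 and Myh2 the vehicle library at 24 h lies under all of them.

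Fat cell transcripts were mostly higher in the combination library. Of the 18 adipocyte markers, all 18 were kept, 17 had a positive ratio and 11 were higher, with a median of 1.11. The list's median spanned 1.56 across the 6 vehicle muscles at 40 d, so mice of 1 group differed by more. Over all genes 43.8% were positive and 2.35% higher. Of the higher markers Cidea and Adrb3 passed the level minimum only through the combination library. The markers summed to 5542 FPKM in the combination and 2924 FPKM in the vehicle library, against 774 to 3273 in the combination muscles and 1104 to 2728 in the vehicle muscles at 40 d, and none was at 0. Adipoq, the fat cell hormone adiponectin, had 506 FPKM in the combination and 299 FPKM in the vehicle library, where the vehicle muscles at 40 d had 71.4, 127 and 269 FPKM (lowest, median and highest). Lep, whose transcript the ob mutation leaves in place, had 340.1 and 249 FPKM, and the secreted protease Cfd 1137 and 508.

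A pair of fat cell genes differed far more than the rest of the list. Cidea, a lipid droplet protein best known from brown and beige fat, had 19.5 FPKM in the combination and 1.14 FPKM in the vehicle library, a ratio of 3.26 (17.1-fold, 10.98 to 27.9). In vehicle muscles at 40 d there were 1.45, 2.66 and 4.24 FPKM of Cidea. Adrb3, the adrenergic receptor that drives fat breakdown, had 24.6 and 2.82 FPKM in the combination and vehicle library, a ratio of 2.75, while the vehicle muscles at 40 d had 0.741 to 2.82. An antisense gene covers 24.9% of the exons of Adrb3, and whether counting used strand is not given. The defining brown fat gene Ucp1, under the level minimum, was at 1.22 FPKM in the combination library (30 reads) and at 0 in the vehicle library. At 40 d it reached 1.03 FPKM in the combination and 0.711 FPKM in the vehicle muscles. The brown fat markers Elovl3 (0.223 and 0.212 FPKM) and Zic1 (0.328 and 0.167) were under 1 FPKM in both.

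Genes of fat synthesis differed in the same direction, 13 of 16 kept positive and 7 higher, against 43.8% and 2.35% of all genes. Their median was 0.87 beside a span of 1.10 at 40 d. Scd1, the desaturase that makes oleate, had 8056 FPKM in the combination and 3931 FPKM in the vehicle library, and the vehicle muscles at 40 d had 763 to 3916. Both libraries thus lay above all of the vehicle muscles at 40 d. Fasn, the fatty acid synthase, had 104 and 44.2 FPKM, and the citrate carrier Slc25a1 80.4 and 28.1. On the cholesterol list 10 of 11 kept genes were positive with a median of 0.45, and 1 was higher, the sterol sensor Insig1 at 129 and 38.7 FPKM. These are genes of fat cells as well as muscle, and the adipocyte markers were higher in the same library. Their part was not tested.

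The largest ratios belonged mostly to immunoglobulin genes, the antibody genes of plasma cells. The 17 that passed the level minimum summed to 812 FPKM from 10941 reads in the combination and 64.9 FPKM from 1682 reads in the vehicle library. In the vehicle library only Igkc and Ighm exceeded 5 FPKM and 9 of the 17 had no read, so the others passed the minimum only through the combination library, and neither their number nor their sum supports a difference. The same genes summed to 44.1 to 58.1 FPKM in the combination muscles and 35.4 to 93.7 FPKM in the vehicle muscles at 40 d. Igkc, the kappa light chain constant region (chromosome 6, 70726435 to 70726966, plus strand), had 307 FPKM in the combination and 9.06 FPKM in the vehicle library, a ratio of 4.94 (33.9-fold, 27.0 to 43.2). Jchain, which joins secreted antibodies, had 16.9 and 0.807 FPKM and also passed the level minimum only through the combination library. Ighm, the heavy chain of IgM, chosen after its values were seen, had 245 and 52.6 FPKM. The variable segment Igkv4-70 had 36.7 FPKM in the combination library and no read in the vehicle library, at least 73.2-fold higher than the limit of 3 reads, and 7 of the 12 variable segments kept had no read in the vehicle library. Variable segments are alike and short, and the short segments Igkj2 and Ighd4-1 passed the level minimum with 10 and 2 reads in the combination library and none in the vehicle library.

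Markers of other lymphocytes were low in both libraries. The B cell gene Cd79a had 1.19 FPKM in the combination library, against 0.174 in the vehicle library, and the T cell gene Cd3e had 0.555 and 0.886. All 18 lymphocyte markers together summed to 587 FPKM in the combination and 72.4 FPKM in the vehicle library, and most of either sum was immunoglobulin. Macrophage, endothelial and fibroblast lists had medians of −0.13, 0.00 and −0.24, and no member of the neutrophil, skin, cartilage or epithelial lists passed the level minimum.

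**Figure D4:**
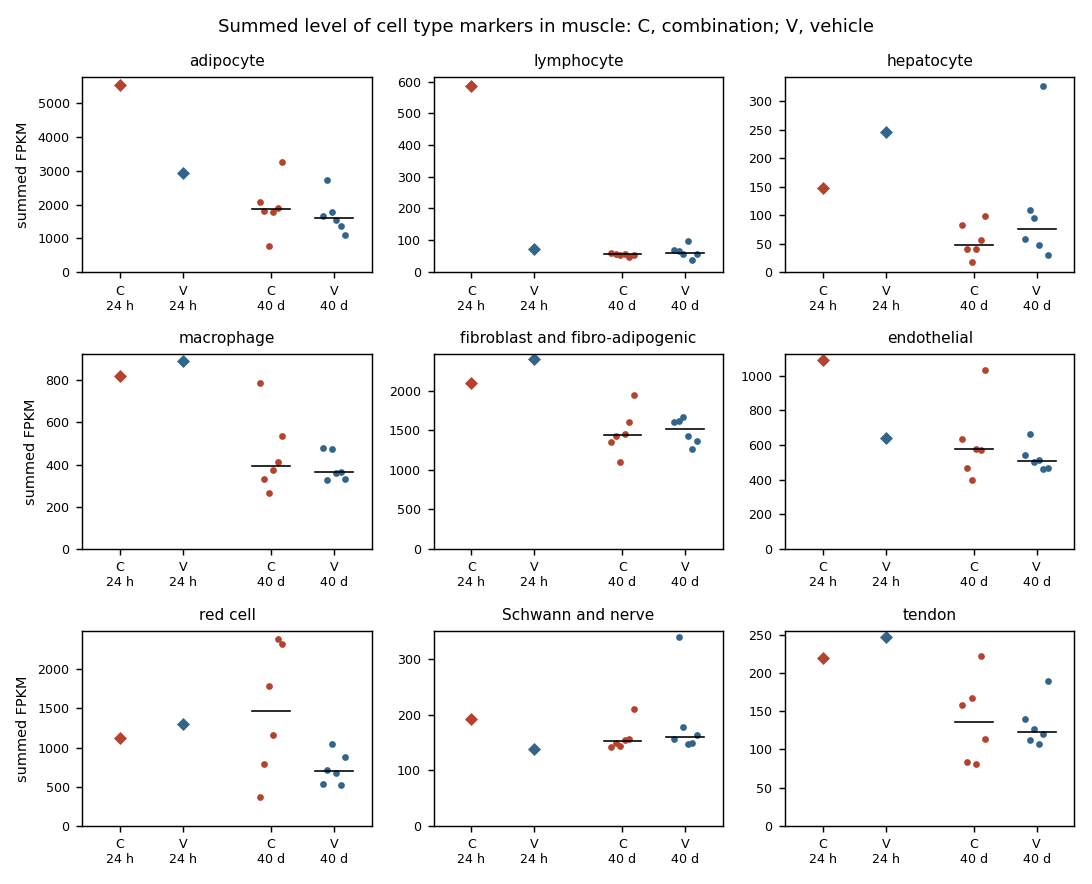
Summed FPKM of 9 lists of cell type markers in muscle at 24 h (diamonds, 1 library each) and 40 d (circles, 6 libraries each, with the median as a bar), combination in red and vehicle in blue. The lymphocyte sum in the combination library at 24 h (587 FPKM) and the adipocyte sum (5542 FPKM) lie above all other muscles, and the hepatocyte sum is higher in the vehicle library (246 FPKM) than in the combination library (147 FPKM).

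The lowest ratios belonged mostly to transcripts that the liver makes for the blood, which were present in the vehicle library. Apoa2, an apolipoprotein, had 0.248 FPKM in the combination and 40.3 FPKM in the vehicle library, a ratio of −5.05. Alb, serum albumin, had 5.32 and 66.7 FPKM, and Ttr, the thyroid hormone carrier, had no read in the combination library and 15.5 FPKM in the vehicle library. Alb levels in the vehicle muscles at 40 d were 1.94, 5.92 and 98.0 FPKM (lowest, median and highest), and the highest exceeded the vehicle library at 24 h. The hepatocyte markers summed to 147 FPKM in the combination library, of which Rbp4 was 128, and to 246 FPKM in the vehicle library. Of the 17 hepatocyte markers 7 were kept, 5 of them lower. The list's median was −3.43, a smaller distance than the 4.03 that it spanned at 40 d. Of the lower genes Apoa2, Apoa1, Ttr and Ahsg passed the level minimum only through the vehicle library. Neither the count of lower markers nor the median therefore supports a difference.

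In the vehicle library these transcripts stood in nearly the same proportion to each other as in liver. For 15 of the 17 hepatocyte markers, the level in the vehicle muscle was 0.296% to 0.513% of that in the vehicle liver library at 24 h. In the combination library 15 of 17 were at 0.104% or less of the combination liver and 6 were at 0. The vehicle exceptions were Rbp4, which fat cells also make (2.17%), and Serpina1c (1.01%), and the combination exceptions were Rbp4 (4.71%) and Cyp2e1 (0.388%). Whether the liver and muscle of a group came from the same mouse is not stated.

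**Figure D5:**
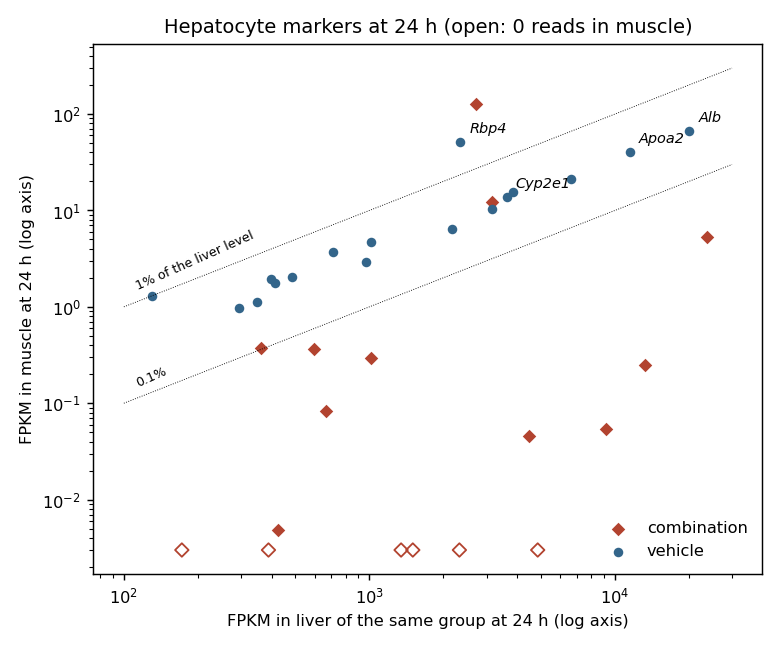
FPKM of the 17 hepatocyte markers in muscle (vertical log axis) against liver (horizontal log axis) of the same group at 24 h, combination as red diamonds and vehicle as blue circles. Open symbols had no read in muscle and are drawn at the foot. The vehicle points run parallel to the dotted lines of constant share, most of them between 0.296% and 0.513% of the liver level, and 15 of the 17 combination points are at 0.104% or less.

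Among the genes of muscle itself that were lower were Rasd2, a small GTP-binding protein, at 11.5 FPKM in the combination and 45.1 FPKM in the vehicle library, Ky, a Z-disc protein, at 23.7 and 75.2 FPKM, and Ddit4l, an inhibitor of mTOR signalling, at 43.4 and 113 FPKM. Prkag3, the AMPK subunit of fast fibres, had 15.04 and 37.2 FPKM, a ratio of −1.25, and Gpx3, a secreted glutathione peroxidase, 159 and 358. For Ky, Ddit4l, Prkag3 and Gpx3 both libraries lay within the levels of the 12 muscles at 40 d. AMPK is the energy sensor through which exercise mimetics are often thought to act. The list of exercise and AMPK genes as a whole had a median of 0.07, with 2 higher and 1 lower of 17 kept. Over all genes 2.35% were higher and 0.828% were lower. The 2 higher were Lmcd1, a LIM protein (248 and 88.8 FPKM), and Nmrk2, which makes NAD from nicotinamide riboside (59.6 and 25.8 FPKM). The coactivator gene Ppargc1a, a textbook exercise response, had 3.55 and 3.11 FPKM.

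Several other programmes showed small differences in these 2 libraries. For comparison, 56.2% of all genes had a negative ratio, 2.35% were higher and 0.828% lower. Ribosomal protein genes had negative ratios in all 35 members, with a median of −0.32 beside a span of 0.67 at 40 d and none reaching 2-fold. Atrophy and autophagy genes had a median of −0.16 and none of 22 was called; the growth inhibitor Mstn had 19.6 and 39.4 FPKM (−0.97) and the ubiquitin ligase Trim63 91.6 and 144 FPKM (−0.64) in the combination and vehicle library. Clock genes had a median of −0.25 with 13 of 15 negative and none called, such as the clock output Dbp at 26.9 and 41.2 FPKM. Insulin signalling had a median of −0.0038, with Irs2, an insulin receptor substrate, the 1 gene higher at 21.7 and 9.15 FPKM. The metallothionein genes Mt1 and Mt2, which bind zinc, had 180.3 and 16.1 FPKM in the combination library, against 87.6 and 7.12 in the vehicle library, and an antisense gene covers 73.5% of the exons of Mt2. Matrix genes had a median of 0.01.

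Of aspirin's targets, Ptgs1 had 2.06 FPKM in the combination and 3.69 FPKM in the vehicle library (0.558-fold, 0.443 to 0.699) and Ptgs2 0.247 and 0.0970, both under the level minimum. Of 23 genes of prostaglandin and leukotriene synthesis 7 were kept, with a median of 0.11. Of these 1 was higher, against 2.35% of all genes. It was Ltc4s, the leukotriene C4 synthase, at 15.05 and 6.01 FPKM, with an antisense gene over 26.4% of its exons.

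The same genes were looked up in the muscles at 40 d, where 6 combination and 6 vehicle mice allow a test. None of 11708 genes passed limma's moderated test at a Benjamini-Hochberg adjusted p under 0.05 (0%), with 451 at an unadjusted p under 0.05 (3.85%). Of the 141 genes higher at 24 h that could be tested, 54 had a positive log2 fold change at 40 d (38.3%, against 48.6% of all genes), and of 47 lower genes 30 were positive (63.8%). Fatty acid oxidation, positive in all 23 genes at 24 h, was negative in all 23 at 40 d, with a median of −0.24. The thiolase genes Acaa2 and Hadhb had log2 fold changes of −0.39 (SE 0.19) and −0.33 (SE 0.15), both at 0.9991 after adjustment in limma. Acsl1 had a median of 48.1 FPKM in the combination and 65.6 FPKM in the vehicle muscles (log2 fold change −0.37, SE 0.12, limma adjusted p = 0.9991). Csrp3, Ankrd1 and Fos had log2 fold changes of 0.20 (SE 0.32), 0.28 (SE 0.29) and 0.39 (SE 0.40), and Cidea one of −0.02 (SE 0.29), all with the same adjusted p. The difference between the times was not tested, since the tables were normalized separately and 24 h has 1 library a group.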

How the data were processed

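Per the labels' protocols, Trizol was used to extract RNA and a NEBNext Ultra kit to make libraries. The authors deposited FPKM tables with gene names, lengths and coordinates, per the file headers, and the submitters' processing notes give the builds GRCm38 and mm10. No aligner, counter or strand setting is given in the sources used here. Of the deposited FPKM values 100% matched a whole number of reads (tolerance 0.01), which gave the reads behind each value. The 24 h and 40 d tables were normalized separately, and the 40 d liver table was not used here.

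At 24 h the log2 ratio had a pseudocount of 1 FPKM, over genes averaging 5 FPKM or more, with no test. Lists were described by counts and medians, with 1 row a symbol (the more abundant). Fold intervals are exact (Clopper-Pearson, 95%), and the limit of a library without reads is 3 reads. At this depth a gene with few reads is limited by counting error. Muscle at 40 d was tested in limma (moderated, with a mean-variance trend) on log2(FPKM + 1), two-sided, Benjamini-Hochberg over genes reaching 1 FPKM in 6 or more libraries. The groups come from the labels, and nothing else says that libraries of a group are separate mice, so p-values measure the spread between these samples. Scripts used Python 3.11.15, pandas 2.3.3, NumPy 2.4.6, SciPy 1.17.1, matplotlib 3.10.9, R 4.3.3 and limma 3.58.1, and were checked on simulated data. Of 266 genes that the naming rule selects, 265 were found in the GENCODE annotation of GRCm38 in use here and 240 had the same coordinates there. The rule names the 20 largest and 20 smallest ratios, up to 4 members by ratio and 2 by level of each list with at least 5 kept, and a preset group of genes (drug targets, metabolism, fibre type), leaving out predicted genes and pseudogenes. The comparison, the 54 gene lists and the rule were chosen with earlier results of these data known. Alternatives were other pseudocounts, level minimums and scalings and leaving out each 40 d library.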

Additional observations from a re-analysis of the deposited data

Results flagged for a closer look

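In the muscles at 40 d, 38 groups of 6 libraries (19 genes in 2 groups) were searched for a library far from the others. By Dixon's criterion 6 groups had one, each time the highest library. Chance meets the criterion in about 1 in 20 groups of normally distributed values. The search used FPKM without a log scale, where that rate need not hold, so 6 of 38 is not read as an excess. The highest combination muscle had 86.6 FPKM of Csrp3, with the next at 49.5. For Alb the highest combination muscle had 14.2 FPKM, with the next at 5.01, and the highest vehicle muscle had 98.0 FPKM, with the next at 11.6. The highest combination muscle had 218 FPKM of Mt1, with the next at 84.8. The highest vehicle muscle had 299.5 FPKM of Acaa2, with the next at 195. For Hspa1b the highest combination muscle had 10.6 FPKM, with the next at 6.36.

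At 24 h, 4 named genes that averaged 5 FPKM or more in both tissues had ratios past 2-fold in opposite directions in muscle and liver, with 1 library in each group, and the difference was not tested. The immunoglobulin segment Igkv3-2 had a ratio of 3.30 in muscle, from 69 reads in the combination and 2 in the vehicle library, and of −1.02 in liver. The mitochondrial gene mt-Nd4l had 2.56 in muscle and −1.11 in liver. Chac1, a glutathione-degrading enzyme of the integrated stress response, had −1.02 in muscle, with 30.3 FPKM in the combination and 62.5 FPKM in the vehicle library, and 1.75 in liver. Trbd1, a short T cell receptor segment, had 3.60 in muscle, from 2 reads in the combination library and none in the vehicle library, and −4.04 in liver.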

How the results depend on the processing

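At 24 h, 159 genes were higher and 56 lower. At a level minimum of 1 FPKM these were 300 and 151, at a minimum of 20 FPKM 88 and 30, and with a pseudocount of 5 FPKM 37 were lower. That pseudocount left 109 higher. The other settings gave 115 to 185 higher and 44 to 73 lower genes. Of the genes named, 91 passed 2-fold, and 50 at the minimum of 20 FPKM, where fewer genes are kept. Of the list medians 26 were above 0, and those of muscle structure, insulin signalling, the integrated stress response and the matrix changed sign in 1 to 4 settings. At 40 d leaving out 1 library at a time gave 0 to 1 gene past the threshold. The 1 was Gm3362 without vehicle 6_1 (log2 fold change 0.84, SE 0.10, limma adjusted p = 0.0328, against 0.0958 with all libraries), and the cause was not tested. The settings without immunoglobulin and hepatocyte genes, with protein-coding genes only and with reads scaled to gene length and depth were chosen after seeing the data. No paired analysis was possible because the 24 h groups have 1 library each and the 40 d groups share no replicate numbers. With 1 library a group, a difference between mice and an effect of treatment cannot be told apart at 24 h, and the depth limits genes with few reads.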

Other observations

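Antigen presentation genes, which display peptides to T cells, were positive in 12 of 12 kept genes with a median of 0.34 and none past 2-fold, beside a span of 0.76 for the list's median over the vehicle muscles at 40 d. Genes of branched-chain amino acid breakdown were positive in 16 of 18 with a median of 0.26, beside a span of 0.25. In 7 of them a positive ratio exceeded the gene's own span. Over all genes 43.8% had a positive ratio, and 5.67% one larger than the span.

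Both precursor genes of the muscle microRNA miR-133a were lower at few reads: Mir133a-1 had 2 reads in the combination and 21 in the vehicle library, and Mir133a-2 had 5 and 25. Such precursors are short, and the level of the mature microRNA was not measured. A short gene annotated as a microRNA and a gene annotated as ribosomal RNA were lower in the combination library in both tissues. The short gene Gm23935 had 2439 FPKM in the combination and 9305 FPKM in the vehicle muscle (log2 ratio −1.93, and −2.04 in liver), and the ribosomal RNA gene CT010467.1 had 276 and 757 FPKM (−1.45, and −1.74 in liver). Their part in other values was not tested.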
